A study of Rattus norvegicus with 30 samples.

Results

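Oxidative phosphorylation subunits of the rat adrenal are described here as the genes whose symbol begins with Ndufa, Ndufb, Ndufc, Ndufs, Ndufv, Sdha to Sdhd, Uqcr, Cox4 to Cox8 or Atp5, taken from array rows annotated with exactly 1 symbol, with the brightest row standing for its gene. This rule gave 94 genes of the 14557 measured: 36 of complex I, 4 of complex II, 7 of complex III, 17 of complex IV, 20 of complex V and 10 that assemble complexes I and II. Of these, 59 were main subunits, 17 were copies of a subunit or assembly gene (7 of them pseudogenes in RefSeq), 7 were isoforms known mainly from other tissues and 9 were assembly factors. The other two were Cox7a2l, a factor of respiratory supercomplexes, and Atp5if1, the inhibitor of ATP synthase. Ndufa4 bears a complex I name and was counted there, although it is now known as a subunit of complex IV.

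Adrenal RNA of 30 Wistar rats, obtained at 12 weeks of age, was read on Affymetrix Rat Gene 2.1 ST arrays, 1 array for each rat, in 6 groups of 5. ORX + T rats were orchiectomized males injected under the skin 14 days later with a testosterone depot at 5 mg per 100 g of body weight, ORX rats were orchiectomized males without hormone, and male controls were sham operated. OVX + E rats were ovariectomized females given an estradiol depot on the same day at 0.5 mg per 100 g, OVX rats were ovariectomized females without hormone, and female controls were sham operated. Every rat, controls included, was operated on under ketamine and xylazine, and glands were taken 4 weeks after surgery. RNA came from entire adrenals, so that cortex, medulla and capsule were measured together. Whether rats without hormone received a vehicle is not given in the sources used here. Values are log2 signals, on which a difference of 1 is a 2-fold change, and a signal cannot be compared between probes of different genes.

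Oxidative phosphorylation turns the electrons of NADH and succinate into ATP on the inner mitochondrial membrane. Complex I takes electrons from NADH and complex II from succinate, coenzyme Q carries them to complex III, cytochrome c carries them on to complex IV, which reduces oxygen, and complex V (ATP synthase) makes ATP from the proton gradient that complexes I, III and IV build up. In the adrenal cortex the mitochondria also hold the steroid-making enzymes Cyp11a1, Cyp11b1 and Cyp11b2, which draw electrons from NADPH through ferredoxin instead of this chain.

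The members gave little response to gonadectomy or hormone replacement apart from a single complex I gene. Ndufa5, an accessory subunit of the matrix arm of complex I, was 4.34-fold lower in OVX + E than in OVX adrenals. Cox6a2, the heart and skeletal muscle isoform of subunit 6a of complex IV, was 1.47-fold lower in the same comparison, at a signal close to the median of the whole array. None of the 94 members passed the test in any comparison among males, and none of the other 92 in any comparison among females, in the fit of all 30 arrays; fits that allow for the spread of the arrays called more, Ndufa5 in males among them.

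RefSeq promoter windows (GRCr8, 250 bases before to 50 bases after the start of the gene, 300 in all) were found for 77 of the 94 members and were searched on both strands for 5 short motifs: NRF1 (GCGCATGC), the element of the estrogen-related receptors (AAGGTCA), the ETS core of GABP (CCGGAAG), YY1 (AAGATGGC) and a TATA element (TATAAA). NRF1, GABP, YY1 and the estrogen-related receptors are regulators known from promoters of nuclear genes for the respiratory chain. The GABP core occurred in 21 member windows (27.3%), against 8.75% of all 33469 windows, and the YY1 motif in 16 (20.8%), against 3.17%. The NRF1 motif was found in 10 member windows (13%), against 2.47% of all, the receptor element in 10 (13%), against 4.61%, and the TATA element in 9 (11.7%), against 14.2%. The windows of the 2 genes that passed the test are shown first and hold none of these motifs. The same was true of many members that did not pass, among them Ndufb3, Ndufv2, Ndufv3, Sdha, Uqcrfs1 and Cox7b. Those of Ndufa6 and Cox8a, chosen after the search as subunits with 3 motifs, are shown for contrast, with every motif match in capitals.
Ndufa5, chr4:53971186-53971485 (-): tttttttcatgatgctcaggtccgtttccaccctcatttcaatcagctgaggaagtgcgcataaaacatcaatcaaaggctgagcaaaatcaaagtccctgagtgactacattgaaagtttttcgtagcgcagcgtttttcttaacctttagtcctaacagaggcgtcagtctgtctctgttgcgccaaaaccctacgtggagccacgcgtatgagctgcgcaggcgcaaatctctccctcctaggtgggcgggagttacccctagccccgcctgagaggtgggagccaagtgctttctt
Cox6a2, chr1:192219667-192219966 (-): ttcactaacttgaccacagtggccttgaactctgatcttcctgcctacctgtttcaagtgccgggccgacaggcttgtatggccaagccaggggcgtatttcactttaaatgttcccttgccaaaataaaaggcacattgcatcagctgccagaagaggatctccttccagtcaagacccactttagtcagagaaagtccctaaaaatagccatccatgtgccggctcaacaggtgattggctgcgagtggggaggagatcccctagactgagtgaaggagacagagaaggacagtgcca
Ndufa6, chr7:115750268-115750567 (-): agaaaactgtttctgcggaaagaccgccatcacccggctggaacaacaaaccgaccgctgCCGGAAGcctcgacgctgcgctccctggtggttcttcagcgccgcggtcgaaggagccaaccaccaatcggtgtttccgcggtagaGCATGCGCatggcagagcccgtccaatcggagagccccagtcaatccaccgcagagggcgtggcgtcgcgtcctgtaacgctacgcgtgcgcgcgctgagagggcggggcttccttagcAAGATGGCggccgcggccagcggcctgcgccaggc
Cox8a, chr1:213833574-213833873 (-): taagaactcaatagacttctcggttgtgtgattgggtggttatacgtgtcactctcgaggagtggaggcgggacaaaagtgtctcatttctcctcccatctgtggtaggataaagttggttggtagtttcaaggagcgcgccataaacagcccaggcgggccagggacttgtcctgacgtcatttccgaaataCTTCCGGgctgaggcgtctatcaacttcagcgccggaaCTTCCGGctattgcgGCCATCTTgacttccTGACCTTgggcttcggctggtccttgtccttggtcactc
In the Ndufa6 window the capitals mark the GABP, NRF1 and YY1 motifs, and in that of Cox8a GABP at 2 places, YY1 and the receptor element. A match is only a run of letters, and none in a window says nothing of the factor.

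The spread of the arrays has to be read beside every level of these genes. The SD of the log2 signal over all rows of an array was 1.43 to 1.60 on 10 arrays, called narrow below, and 1.67 to 1.75 on the other 20. ORX + T, ORX, OVX + E and OVX each held 2 narrow arrays, and each control group held 1. The median signal of the 94 members was 6.52 to 7.003 on the narrow arrays and 7.13 to 7.49 on the others, with no overlap. Within their own groups, 58 of the 59 main subunits were lower on the narrow arrays, by a median of -0.50, while 86.7% of all genes above the array medians were lower there, by a median of -0.52. The exception was Atp5f1c. The lower member signal on these arrays was thus shared with other bright genes, and what made the arrays narrow was not tested.

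**Figure D1:**
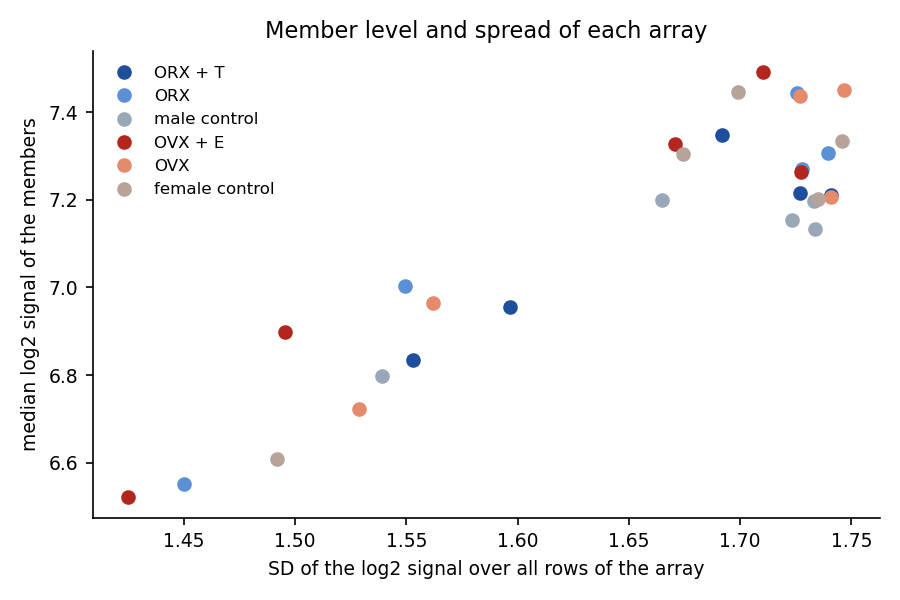
Each point is 1 of the 30 arrays, with the SD of its log2 signal over all rows on the x axis, the median log2 signal of the 94 members on the y axis and the group as color. The 10 arrays with an SD of 1.43 to 1.60 lie between 6.52 and 7.003, below the other 20, which lie between 7.13 and 7.49.

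The level of each complex, taken as the median of its main subunits on an array, was alike in all groups within the spread between rats. This level is the signal of the middle-ranked probes, so it can differ from what the other subunits did. In complex III it was that of Uqcrc1 in OVX + E (8.87 ± 0.46) and OVX (9.01 ± 0.33, SD, n = 5 each). For complex I (28 main subunits) it averaged 7.92 ± 0.29 in ORX + T, 7.88 ± 0.39 in ORX and 7.94 ± 0.27 in male control adrenals, and 7.94 ± 0.55 in OVX + E, 7.98 ± 0.39 in OVX and 7.97 ± 0.37 in female control adrenals (SD, n = 5 each). The group means of every complex lay closer together than the SD between the rats of a group. For complex V (14 main subunits) they were 8.10 ± 0.20 in ORX + T, 8.20 ± 0.34 in ORX and 8.08 ± 0.28 in male controls, and 8.03 ± 0.42 in OVX + E, 8.19 ± 0.31 in OVX and 8.06 ± 0.31 in female controls. Although this level was higher in ORX than in male controls, the median difference over all 20 complex V members was -0.06.

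On the 20 arrays of ordinary spread, the rats of a group lay closer together. The complex V level was 8.16 to 8.24 in ORX + T (3 arrays), 8.37 to 8.54 in ORX (3 arrays) and 8.12 to 8.32 in male controls (4 arrays), so that ORX did not overlap with either group. OVX, at 8.34 to 8.54, likewise lay above female controls, at 8.03 to 8.33. In complex IV, ORX + T (8.21 to 8.24) and ORX (8.19 to 8.53) lay above male controls (8.03 to 8.18), and in complex II ORX + T (9.43 to 9.48) lay above male controls (9.26 to 9.41), as did female controls (9.43 to 9.60). Complex I lay at 8.23 to 8.46 in OVX + E (3 arrays), 8.16 to 8.32 in OVX (3 arrays) and 8.08 to 8.20 in female controls (4 arrays), where OVX + E and controls did not overlap. These were 8 of the 35 pairs of a complex and a comparison, and the other 27 overlapped. In complex IV the lowest ORX array and the highest male control array were at 8.186 and 8.184. Without the narrow arrays the median difference in ORX against male controls was 0.09 over the members and 0.04 over all genes. How often other sets of genes fail to overlap on so few arrays was not counted. The 8 pairs thus cannot be called many or few. The levels were looked at after the arrays had been split by spread, and they were not tested. They rest on 3 or 4 rats a group and on the middle-ranked probes of each complex.

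**Figure D2:**
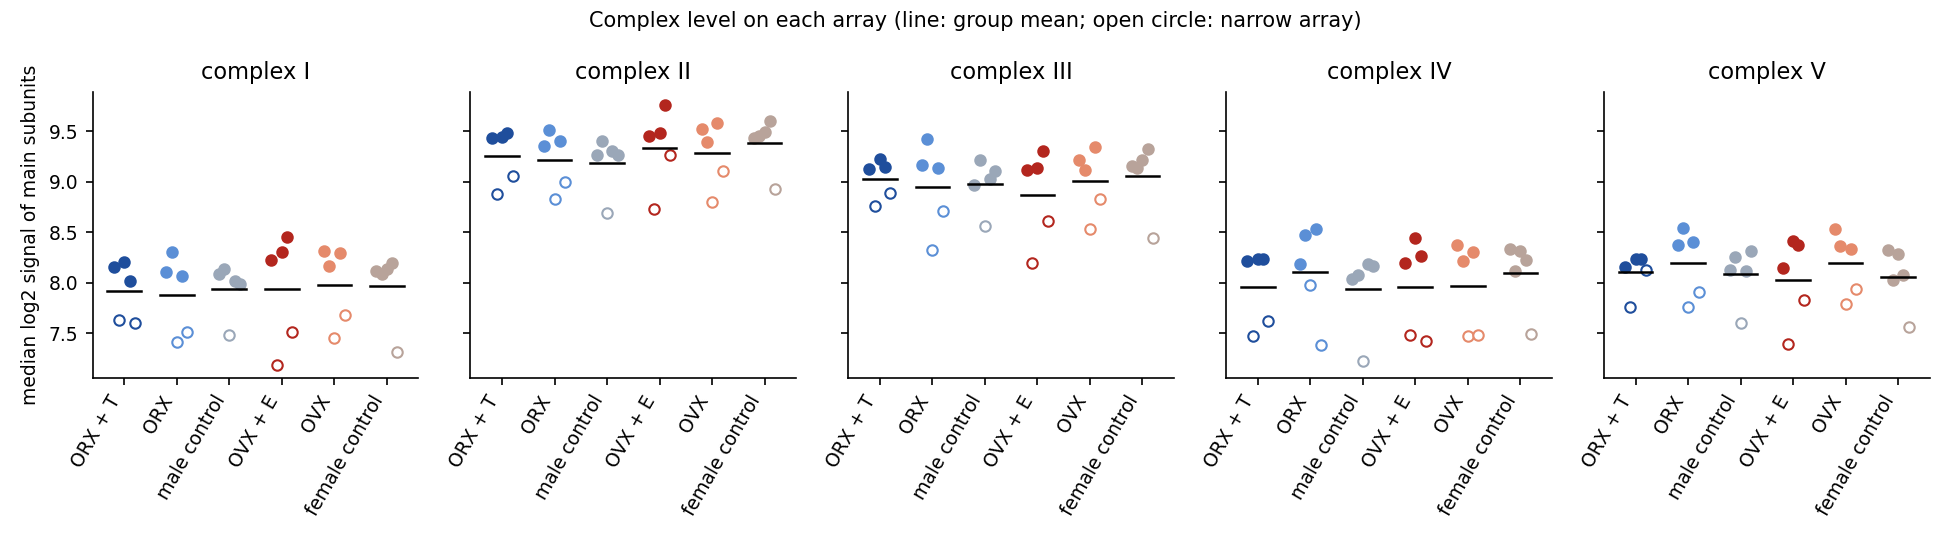
Median log2 signal of the main subunits of each complex (y axis) on each array, by group, with a line at the group mean of 5 arrays and open circles for narrow arrays. Group means of complex I run from 7.88 to 7.98, and its open circles lie below the filled ones of their group; heights are not comparable between complexes.

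Ndufa5 (Entrez gene 25488, chromosome 4, probe set 17790047) gave the largest difference of any member, in OVX + E against OVX. Its log2 signals were 7.11, 6.26, 6.93, 7.49 and 6.43 in OVX + E adrenals, 9.06, 9.29, 8.83, 9.10 and 8.55 in OVX adrenals and 7.67, 8.16, 8.14, 8.37 and 7.53 in female controls. The 3 female groups did not overlap with each other: every OVX rat lay above every control, and every OVX + E rat below. In males the signals were 7.56, 6.86, 7.02, 7.42 and 6.74 in ORX + T, 8.15, 8.22, 7.44, 7.87 and 7.27 in ORX and 7.59, 8.25, 7.49, 7.12 and 7.12 in controls, and all 3 groups overlapped.

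Ndufa5 fell by 2.12 on the log2 scale in OVX + E against OVX (SE 0.25, limma adjusted p = 3.713e-06 over 14557 genes), and by 1.13 against female controls (SE 0.25, adjusted p = 0.0392). The exact two-sided permutation p was 0.00794 for each of these, the smallest that 5 against 5 rats can give. The second call was lost without any 1 of female control replicates 2, 3 and 4 or OVX + E replicates 2, 3 and 5 (adjusted p up to 0.191 in limma), and without the 10 narrow arrays. In OVX against female controls the difference was 0.99 (SE 0.25) with a limma adjusted p of 0.121, and in ORX + T against ORX it was -0.67 (SE 0.25, adjusted p = 0.276). The fall in ORX + T against ORX passed in 3 alternative limma fits at a like size, with array weights (-0.75, adjusted p = 0.00758), quantile normalization (-0.72, adjusted p = 0.00637) and the array SD as a covariate (-0.73, adjusted p = 0.00248), and without the narrow arrays it was -0.75 (adjusted p = 0.0641). The response to estradiol in females differed from that to testosterone in males by -1.45 (SE 0.35, limma adjusted p = 0.0242), that is, OVX + E minus OVX was lower than ORX + T minus ORX. Sex and hormone cannot be told apart in this comparison. This call was lost without any 1 of OVX replicates 2 and 4, OVX + E replicates 2 and 5, ORX replicates 3 and 5 and ORX + T replicates 1 and 4 (adjusted p up to 0.0643 in limma). Without the 10 narrow arrays the difference in OVX + E against OVX was -1.97 (adjusted p = 2.883e-05) and that between the responses to replacement -1.22 (adjusted p = 0.0395, both by limma). The rise in OVX against female controls then passed as well, at 1.06 (limma adjusted p = 0.016), as did that of Cox6a2, at 0.53 (adjusted p = 0.0406).

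**Figure D3:**
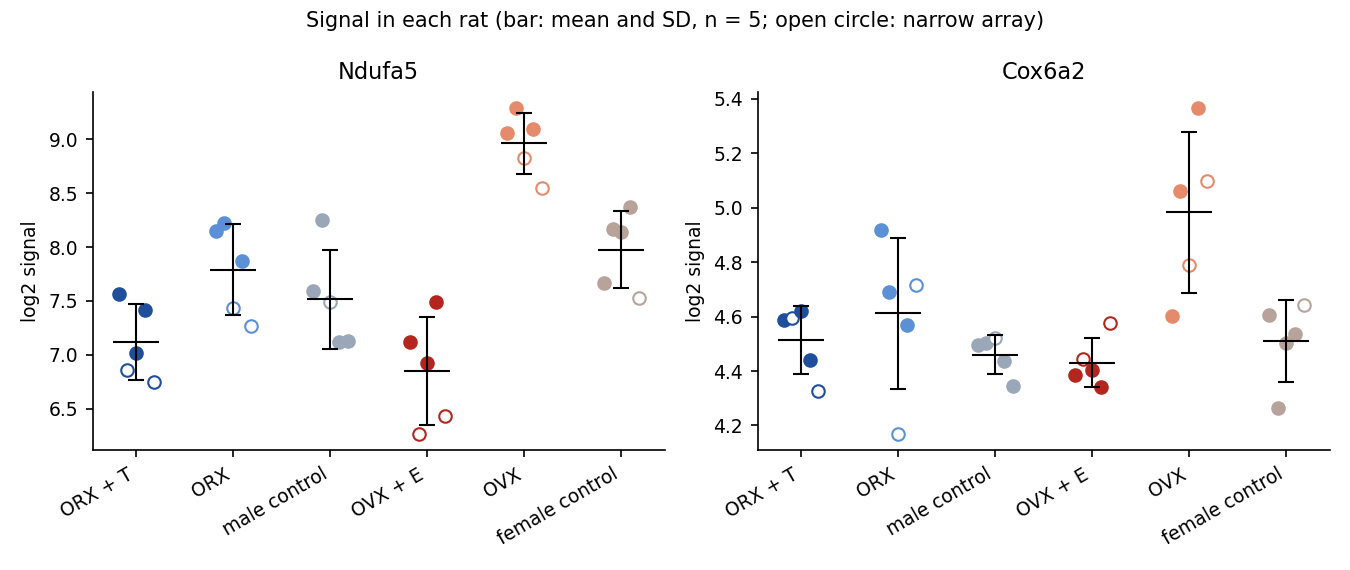
Log2 signal (y axis) of Ndufa5 and Cox6a2 in each rat by group, with the mean and SD of 5 rats as bars and open circles for narrow arrays. The 5 OVX rats lie between 8.55 and 9.29 for Ndufa5, above the 5 OVX + E rats at 6.26 to 7.49; the axes do not start at 0.

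As background, 246 genes passed the test in OVX + E against OVX, 1.69% of those tested, and 2 of the 94 members were among them. With a fold above 2 added, 0.9% of all genes passed and 1 member, Ndufa5. In OVX + E against female controls 0.234% of all genes passed, and 0.158% with a fold above 2, with Ndufa5 the only member in each. For OVX against female controls no member passed, against 0.165% of all genes, and 2 members (Ndufa5 and Cox6a2) had an unadjusted p under 0.05, against 3.93% of all genes. At that limit there were 7 members in OVX + E against OVX (10.3% of all genes) and 2 in OVX + E against female controls (4.65%). The members' median difference was 0.03 in OVX + E against OVX and that of all genes 0.02, while in OVX against female controls the medians were -0.02 and -0.03. In the fit reported, members and all genes thus had nearly the same median in each of these comparisons.

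In males the chain was as quiet. No member passed the test in ORX + T against ORX, where 299 genes (2.05%) did, in ORX + T against male controls (0.941% of all genes) or in ORX against male controls (0.055%). At an unadjusted limma p under 0.05 there were 3 members (7.93% of all genes), 0 members (5.16% of all genes) and 1 member (4.72% of all genes) in these comparisons. The medians over the members were -0.00, -0.01 and -0.00, and those over all genes -0.01, -0.00 and -0.00. Female against male controls gave no member either (0.433% of all genes passed), and 1 member had an unadjusted p under 0.05 (4.01% of all genes), at medians of 0.04 and 0.02. The response to gonadectomy, OVX minus female control against ORX minus male control, differed for no member, against 0.00687% of all genes, and the response to replacement for Ndufa5 alone, against 1.57% of all genes. At an unadjusted p under 0.05 there was 1 member for the response to gonadectomy (2.14% of all genes) and there were 4 for the response to replacement (7.99%).

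The intervals show how much of a change these 5 rats a group could have missed. The 95% interval of a member's difference reached 0.36 log2 units to either side at the median. It lay wholly within a 2-fold change in either direction for 89 of 94 members in ORX + T against ORX and for 91 in OVX + E against OVX, and within a 1.5-fold change for 59 and 62. Changes under 1.5-fold were therefore within the error for many of these genes. Larger ones could also go uncalled after adjustment, as did the difference of 0.99 for Ndufa5 in OVX against female controls. In bulk RNA, fewer cells of a type and less RNA per cell cannot be told apart.

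**Figure D4:**
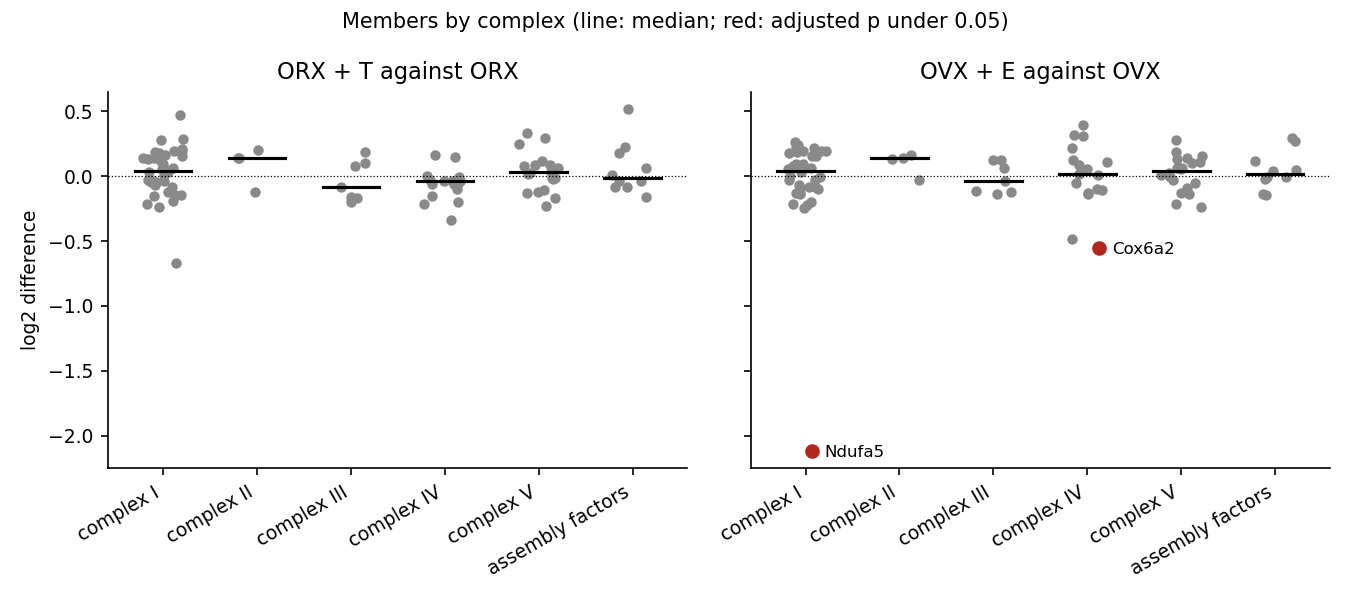
Log2 difference (y axis) of each of the 94 members in ORX + T against ORX (left) and OVX + E against OVX (right), by complex, with a line at the median of the complex and the members that passed in red. Ndufa5 at -2.12 and Cox6a2 at -0.55 are the red points, and the medians of the complexes lie between -0.09 and 0.14.

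Complex I held 36 members, of which 1 passed in OVX + E against OVX and none in ORX + T against ORX. Ndufv3, an accessory subunit of the NADH-binding module, had 8.64, 8.39, 8.97, 8.85 and 8.99 in ORX + T adrenals, against 8.45, 8.68, 7.65, 8.61 and 8.10 in ORX adrenals. Its difference of 0.47 (SE 0.19) gave a limma adjusted p of 0.409, and the groups overlapped. Ndufb3, an accessory subunit of the membrane arm, averaged 7.96 ± 0.61 in OVX + E and 7.70 ± 0.59 in OVX (SD, n = 5 each), a difference of 0.26 with an SE of 0.35. Ndufv2, which carries an iron-sulfur cluster beside the NADH site, read 9.78, 9.59, 9.89, 9.95 and 9.92 in OVX + E, against 9.73, 9.64, 9.52, 9.72 and 9.58 in OVX, a difference of 0.19 (SE 0.08, limma adjusted p = 0.392). Ndufa4l2, a relative of Ndufa4 known to rise in hypoxia, averaged 4.62 ± 0.24 in ORX + T and 4.49 ± 0.27 in ORX, and 4.35 ± 0.17 in OVX + E and 4.38 ± 0.14 in OVX adrenals (SD, n = 5 each). Over all 36 members the median difference was 0.04 in ORX + T against ORX and 0.04 in OVX + E against OVX.

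All 4 subunits of complex II, which is also succinate dehydrogenase of the citric acid cycle, were measured and none passed. Sdhb, the iron-sulfur subunit, averaged 9.24 ± 0.23 in ORX + T and 9.04 ± 0.25 in ORX adrenals, and 9.32 ± 0.33 in OVX + E and 9.18 ± 0.25 in OVX adrenals (SD, n = 5 each). The differences were 0.20 and 0.14, each with an SE of 0.17. Sdha, the flavoprotein that oxidizes succinate, differed by 0.14 (SE 0.12) in ORX + T against ORX, and Sdhd, a membrane anchor, by 0.16 (SE 0.34) in OVX + E against OVX. None of the 12 citric acid cycle genes on a list of other cycle members passed in either comparison.

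In complex III, with 7 members, the nearest to a response was Uqcrh, the hinge protein that holds cytochrome c to the complex. It read 9.50, 9.42, 9.70, 9.67 and 9.70 in ORX + T, 9.78, 9.99, 9.73, 9.84 and 9.65 in ORX and 9.60, 9.56, 9.38, 9.55 and 9.67 in male control adrenals. ORX rats were mostly the highest, with an overlap at 9.65 to 9.70. The difference was -0.20 (SE 0.10) in ORX + T against ORX and 0.25 (SE 0.10) in ORX against male controls, with limma adjusted p of 0.692 and 0.901. Uqcrfs1, the Rieske iron-sulfur protein, differed by 0.19 (SE 0.35) in ORX + T against ORX, and Uqcrc1, a core protein, by -0.13 (SE 0.21) in OVX + E against OVX. Both change sign when 1 array is left out (ORX replicate 3, with -0.10, and OVX + E replicate 2, with 0.03).

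Complex IV held Cox6a2, the second gene that passed. Its signals were 4.38, 4.44, 4.41, 4.34 and 4.58 in OVX + E, 4.60, 5.06, 4.79, 5.37 and 5.10 in OVX and 4.61, 4.26, 4.50, 4.54 and 4.64 in female control adrenals. The OVX + E and OVX groups did not overlap, though their nearest rats were at 4.58 and 4.60. Cox6a2 fell by 0.55 on the log2 scale (SE 0.12, limma adjusted p = 0.0102), and leaving out OVX replicate 4, the highest rat, ended the call at an adjusted p of 0.0543. The median of a whole array was 4.36 to 4.63, so the difference lay between an OVX signal a little above that level and an OVX + E signal at it. In males Cox6a2 ran from 4.33 to 4.62 in ORX + T, 4.17 to 4.92 in ORX and 4.34 to 4.52 in controls.

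The other isoforms of complex IV known from restricted tissues were Cox4i2 of lung, Cox6b2, Cox7b2 and Cox8c of testis and Cox8b of heart, muscle and brown fat, and none passed. Cox8b varied more between rats of a group than these others. It read 7.60, 6.47, 5.78, 6.56 and 6.14 in OVX + E, 6.35, 6.41, 5.72, 6.50 and 6.01 in OVX and 5.17, 6.84, 6.90, 5.83 and 5.20 in female controls. In ORX + T against ORX its difference was -0.34 (SE 0.30). Of the main subunits, Cox5b had 7.11, 5.77, 7.42, 6.69 and 5.32 in OVX + E, against 7.65, 7.36, 6.38, 7.57 and 5.75 in OVX adrenals. Replicates 2 and 5 of OVX + E and 3 and 5 of OVX were the narrow arrays and gave the low values. The difference of -0.48 had an SE of 0.45.

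Cox7b, a small structural subunit of complex IV on the X chromosome, was the main subunit with the largest positive difference under estradiol. It had 9.28, 8.77, 9.58, 9.50 and 9.24 in OVX + E and 9.09, 9.07, 8.57, 9.04 and 8.61 in OVX adrenals, so that only OVX + E replicate 2, a narrow array, lay within the range of the OVX rats. The difference was 0.40 (SE 0.17, limma adjusted p = 0.374), and without the narrow arrays it was 0.39 and passed (limma adjusted p = 0.0244). Cox7a2l, which helps complexes III and IV to join, differed by -0.00 (SE 0.19) in ORX + T against ORX and by 0.11 (SE 0.19) in OVX + E against OVX. Cox8a, the common isoform of subunit 8, differed by -0.21 (SE 0.18) in ORX + T against ORX.

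No member of complex V passed. Atp5f1d, the delta subunit of the central stalk, read 10.90, 10.38, 10.77, 10.93 and 10.47 in OVX + E, against 11.10, 11.04, 10.68, 11.09 and 10.76 in OVX, with overlap. The difference was -0.24 (SE 0.12, limma adjusted p = 0.47). Atp5pb, the b subunit of the peripheral stalk, differed by 0.28 (SE 0.15) in OVX + E against OVX and by 0.29 (SE 0.15) in ORX + T against ORX. Atp5f1c, the gamma subunit of the rotor, had a probe signal below the array medians and differed by 0.34 (SE 0.18) in ORX + T against ORX. Atp5if1, which blocks the reverse reaction of ATP synthase, differed by 0.06 (SE 0.26) in ORX + T against ORX and by -0.13 (SE 0.26) in OVX + E against OVX. Over the 20 members the median was 0.03 in ORX + T against ORX and 0.04 in OVX + E against OVX.

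Of the assembly factors, Sdhaf1, which helps to load the iron-sulfur clusters of Sdhb, had 7.77, 7.47, 7.98, 7.78 and 7.63 in ORX + T and 7.43, 7.48, 6.54, 7.51 and 7.08 in ORX adrenals. The lowest ORX + T rat lay just under the 2 highest ORX rats. The difference was 0.52 (SE 0.24, limma adjusted p = 0.565). Ndufaf7, a methyltransferase acting on complex I, differed by 0.22 (SE 0.19) in ORX + T against ORX and by 0.30 (SE 0.19) in OVX + E against OVX, and Ndufaf1 by 0.27 (SE 0.26) in OVX + E against OVX. Among 32 further assembly factors outside the name rule none passed in either comparison.

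None of the 17 copies and pseudogenes passed, and 9 of them lay below the array medians. In OVX + E against OVX 13 of the 17 lay above 0, at a median of 0.09, where 8067 of all 14557 genes did. In OVX + E against female controls 14 did, at a median of 0.11, against 6848 of all genes. In ORX + T against ORX 7 did, at a median of -0.03, against 6750 of all genes. Copies were mostly higher on narrow arrays, of which OVX + E and OVX each held 2 and female controls 1. On the arrays of ordinary spread the median signal of the copies averaged 4.29 in OVX + E, 4.15 in OVX and 4.19 in female controls. The part of the array spread in these differences was not tested. Atp5mgl4, a copy of a subunit g gene chosen after its values were seen, did not overlap between female and male controls. It read 3.99, 3.95, 4.20, 3.88 and 4.21 in female and 4.29, 4.40, 4.23, 4.33 and 4.53 in male controls. These signals were near or below the array medians of 4.36 to 4.63. How many of all genes did not overlap between the control groups was not counted. The difference of -0.31 (SE 0.09) had a limma adjusted p of 0.184 and passed in 4 alternative fits: with array weights (-0.35, adjusted p = 0.00293), with the array SD as a covariate (-0.31, adjusted p = 0.0252), without the narrow arrays (-0.38, adjusted p = 0.0232) and with quantile normalization of the other 20 (-0.38, adjusted p = 0.0357). Probes of a copy can also bind RNA of its parent gene, so these values are uncertain.

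**Figure D5:**
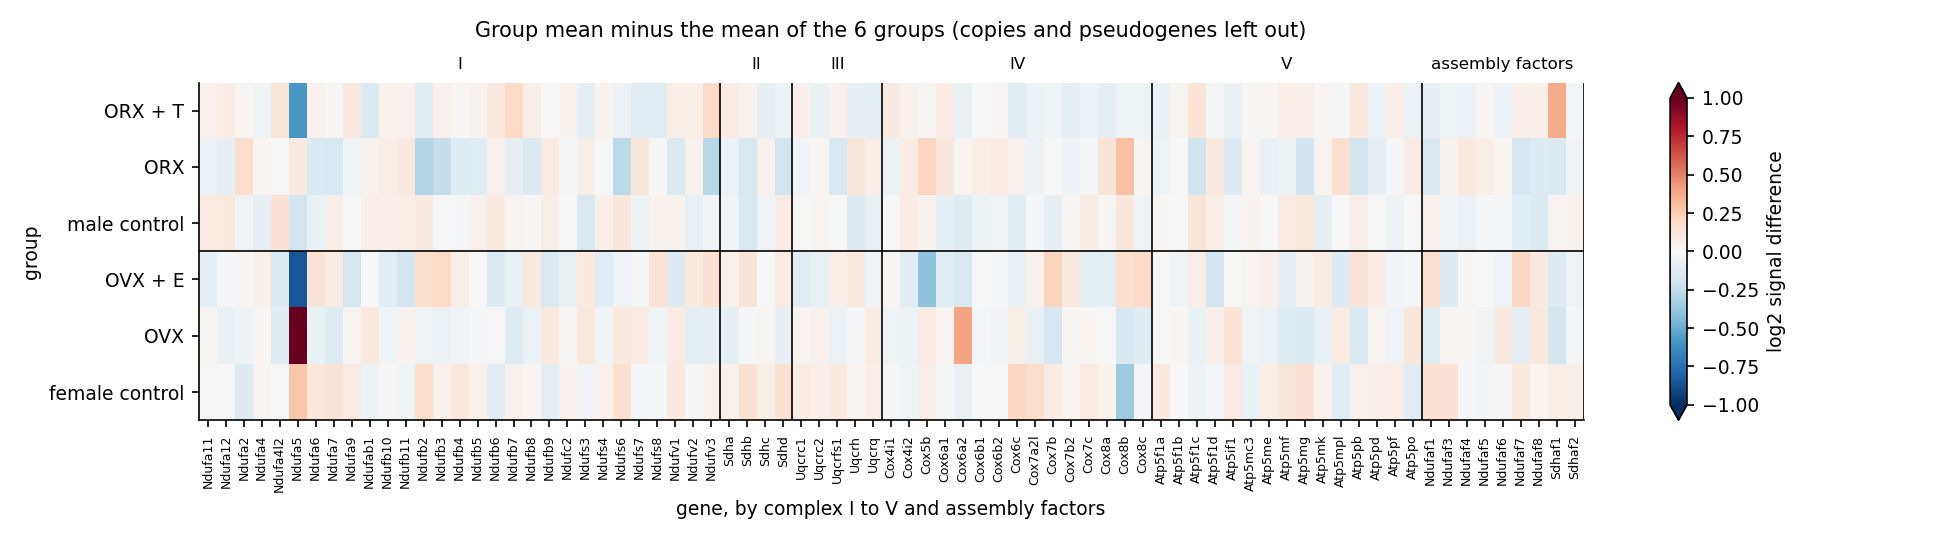
Group mean minus the mean of the 6 groups (color, log2 signal) for each member that is no copy or pseudogene, with genes ordered by complex on the x axis and groups on the y axis. Ndufa5 stands out, dark blue in OVX + E and dark red in OVX, followed by Cox6a2, which is red in OVX; color saturates at 1 in either direction.

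A further 12 array rows carried several symbols, at least 1 of them of the chain (Cox5a, Cox7a2, Uqcrb, Ndufs5, Ndufa10 and Atp5mc2 among them), and lay outside the rule. Tested in a fit of every row, none passed in any of the 9 comparisons, with differences of -0.46 (a Cox5a row, in the response to replacement) to 0.27 and a lowest limma adjusted p of 0.81.

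Lists of genes around the chain, written by hand, were read in the same fit. Of 13 genes of electron carriers and coenzyme Q synthesis, Coq10b, a lipid-binding protein needed for coenzyme Q to work in the chain, passed: it averaged 9.06 ± 0.50 in OVX + E, 10.62 ± 0.13 in OVX and 10.10 ± 0.14 in female control adrenals (SD, n = 5 each). It fell by 1.57 against OVX (SE 0.17, limma adjusted p = 9.889e-07) and by 1.04 against female controls (SE 0.17, adjusted p = 0.00216). Of 11 mitochondrial carriers and channels, only Ucp2, an uncoupling protein homolog, passed: it averaged 10.69 ± 0.14 in ORX + T and 10.10 ± 0.15 in ORX adrenals, and rose by 0.59 (SE 0.14, limma adjusted p = 0.0139), a call lost without ORX + T replicate 4 (adjusted p = 0.0536). None of 18 regulators of mitochondrial genes and none of 63 mitochondrial ribosome genes passed in ORX + T against ORX or OVX + E against OVX. The mitochondrially encoded subunits had no row in the table as annotated here.

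Of mitochondrial steroid synthesis 4 genes were measured. Cyp11b1 and Fdx1 passed in ORX + T against ORX, only Cyp11b2 passed in OVX + E against OVX, and Cyp11a1, which starts the pathway, passed in neither, at 11.67 ± 0.09 in ORX + T and 11.69 ± 0.10 in ORX, and 11.69 ± 0.23 in OVX + E and 11.74 ± 0.10 in OVX adrenals (SD, n = 5 each). Cyp11b1, the 11β-hydroxylase of corticosterone synthesis, averaged 10.40 ± 0.25 in ORX + T, 11.36 ± 0.17 in ORX and 11.07 ± 0.09 in male control adrenals (SD, n = 5 each), and fell by 0.97 against ORX (SE 0.11, limma adjusted p = 7.244e-07). Fdx1, the ferredoxin that passes electrons to these enzymes, averaged 10.64 ± 0.22 in ORX + T and 11.24 ± 0.13 in ORX and fell by 0.60 (SE 0.09, limma adjusted p = 0.000172). Cyp11b2, aldosterone synthase of the zona glomerulosa, averaged 7.92 ± 1.43 in OVX + E and 9.60 ± 0.27 in OVX and fell by 1.68 (SE 0.39, limma adjusted p = 0.0167), a call lost without OVX replicate 2 or 4 or OVX + E replicate 5 (adjusted p up to 0.0632).

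The tissue label was checked against cell type lists. The 6 zona fasciculata genes measured had a mean of 9.57 to 10.15 on every array, and none was below the array medians, with list medians of -0.06 in ORX + T against ORX (Cyp11b1 lower and Mc2r, the ACTH receptor, higher, by 0.996) and -0.04 in OVX + E against OVX (none passing). In OVX + E against OVX the medians of the endothelial (8 genes) and macrophage (8 genes) lists were -0.50 and -0.46, with none passing, the chromaffin (7 genes) list was at -0.27, none passing, and the capsule and fibroblast list (9 genes) at -0.26, none passing. The zona glomerulosa list (7 genes) was at -0.33, with Cyp11b2 passing. In ORX + T against ORX the capsule and fibroblast list had a median of 0.39, with Dcn (0.38) and Postn (0.78) passing, the macrophage list -0.02, with Cd14 passing (1.34), and the glomerulosa list -0.34, with none. Of 9 fat cell genes 7 lay below the array medians, with list medians of -0.03 in ORX + T against ORX (Cidea passing, at 0.94, a call lost without ORX replicate 3 or ORX + T replicate 4, with limma adjusted p of 0.0748 and 0.0607) and 0.04 in OVX + E against OVX (none). The 7 skeletal muscle genes, with 4 below the array medians, had a mean of 4.34 to 4.64 on OVX + E, 4.38 to 4.59 on OVX and 4.29 to 4.69 on female control arrays, with none passing. The part of cell composition in the values of Ndufa5 and Cox6a2 was not tested.

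When the SD of each array entered the fit as a covariate, far more genes passed, members among them. In OVX + E against OVX 17 members passed (18.1%), 15 of them higher in OVX + E, against 14.6% of all genes, of which 1527 were higher and 599 lower. The higher members included Cox7b (0.52), Ndufb3 (0.54), Ndufa7 (0.46), Sdhd (0.44), Uqcrfs1 (0.41) and Atp5pb (0.39), spread over all 5 complexes, and Ndufa5 (-1.97) and Cox6a2 (-0.55) were lower. In ORX + T against ORX 7 members passed (7.45%), 3 of them higher, against 9.95% of all genes. Sdhaf1, Ndufv3 and Atp5pb were the higher ones, and Ndufa5, Cox8a, Uqcrh and Ndufs7 were lower. Without the 10 narrow arrays 4 members passed in OVX + E against OVX (4.26%), Cox7b and Ndufaf7 higher and Ndufa5 and Cox6a2 lower, against 7.69% of all genes. In ORX + T against ORX none then passed, against 6.68% of all genes.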

How the data were processed

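Adrenal RNA of 30 rats (5 a group) was amplified and read on Affymetrix Rat Gene 2.1 ST arrays. The deposited values are log2 signals after RMA (background correction, normalization and summary over probes), run by the authors with affy; their annotation came from oligo (versions not given in the sources used here). The array SD nevertheless ranged from 1.43 to 1.75, and which arrays were normalized together is not given in the sources used here. Here, of 36685 rows, 14824 carried 1 gene symbol and gave 14557 genes by the brightest row; 829 rows with several symbols and 21032 with none were left out of the main fit. Group means of all 30 arrays were fitted with limma 3.58.1 in R 4.3.3 (24 residual and 2.92 prior degrees of freedom), and p-values were adjusted by Benjamini-Hochberg over all 14557 genes within each of 9 comparisons. A gene was called at an adjusted p under 0.05; the authors' further limit, a fold above 2, was an alternative. Exact permutation tests of 5 against 5 rats were two-sided. No array pair was identical. The numbers of rats and the spread between them set the precision.

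The members and lists were chosen with earlier results of these data known. Named were members past the threshold, the 2 members of each complex with the largest differences in ORX + T against ORX and in OVX + E against OVX, and list genes past it. A few further members (Ndufv2, Cox7b, Cox8b, Atp5mgl4, Uqcrh in ORX, Ndufa4l2, Atp5if1 and Cox7a2l) were chosen after their values were seen. All 94 members were found in RefSeq by Entrez number. The fit was tested on simulated data. Alternatives were 1-sex and pairwise fits, array weights, the array SD as a covariate, no narrow arrays, an intensity trend with robust variances, quantile normalization, median centring, every row, the mean of a gene's rows, the 60% of genes with the highest mean, the fold limit, testing beyond a fold of 1.2, replicate number as a block and leaving out each array. Quantile normalization together with leaving out the narrow arrays was chosen after seeing the data.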

Additional observations from a re-analysis of the deposited data

Results flagged for a closer look

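Among the members and list genes named, 6 responses differed between estradiol in females and testosterone in males (OVX + E minus OVX against ORX + T minus ORX, limma test of the difference, adjusted p under 0.05). Females received only estradiol and males only testosterone, so sex and hormone cannot be told apart. The differences were -1.45 for Ndufa5, -1.35 for Coq10b (adjusted p = 0.00102), -0.84 for Ucp2 (adjusted p = 0.0204), -0.64 for Dcn (adjusted p = 0.000322), -0.92 for Postn (adjusted p = 0.0184) and 0.94 for Cyp11b1 (adjusted p = 0.000437). Ndufa5 and Coq10b fell in OVX + E against OVX. In ORX + T against ORX Ndufa5 passed only under array weights, quantile normalization or the array SD as a covariate, and Coq10b differed by -0.22 (limma adjusted p = 0.954).

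A single rat stood far from the other 4 of its group in 22 of 180 groups of 5 values looked at, where chance flags about 1 in 20, and 20 of the 22 were on narrow arrays. Female control replicate 5 was the low one for Ndufb3 (6.52), Sdhb (9.02), Sdha (9.85), Sdhd (7.06), Uqcrh (9.36), Uqcrfs1 (5.56), Uqcrc1 (8.44), Sdhaf1 (6.74), Ndufaf7 (5.70), Ucp2 (9.49) and Mc2r (9.03). Male control replicate 3 was the low one for Sdhb (8.44), Sdha (9.99), Sdhd (7.02), Cox5b (5.89), Sdhaf1 (6.79), Ndufaf1 (4.98) and the median of the members (6.80). ORX replicate 5 was low for Cox5b (5.71), and OVX replicate 5 was high for Atp5f1c (4.96). These are narrow arrays, and each control group held only 1. On arrays of ordinary spread, ORX + T replicate 3 was high for Cyp11b1 (10.83) and male control replicate 2 for Cyp11b2 (10.10).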

How the results depend on the processing

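The fall of Ndufa5 in OVX + E against OVX kept its call under all 25 alternatives, at -2.28 to -1.94. The median difference over the members lay between -0.13 and 0.13 in every comparison and alternative, and took both signs within each comparison. These shifts were smaller than the spread between rats (SD of 0.17 to 0.39 in a group). That spread was widened by the narrow arrays, so the limit is loose. With array SD as a covariate the median in OVX + E against female control was 0.09, and 0.02 over all genes, while in ORX + T against ORX both were -0.02. The counts of members called were less stable; the cause was not tested. The share of all genes called stands in brackets. With array weights 2 members were called in each of ORX against male control (3.96%), ORX + T against ORX (9.11%), OVX against female control (3.59%) and female against male control (6.41%), and 3 in OVX + E against OVX (7.32%). With array SD in the fit as a covariate, members called numbered 1 in ORX against male control (1.69%), 7 in ORX + T against ORX (9.95%), 1 in ORX + T against male control (5.54%), 2 in OVX against female control (3.68%), 17 in OVX + E against OVX (14.6%), 3 in OVX + E against female control (2.1%), 2 in female against male control (4.58%) and 5 for the response to replacement (9.5%). Quantile normalization gave 2 in ORX + T against ORX (5.87%), 1 in OVX against female control (1.26%), 6 in OVX + E against OVX (5.96%), 1 in female against male control (1.65%) and 4 for the response to replacement (4.85%). Without the narrow arrays there were 2 in OVX against female control (1.74%), 4 in OVX + E against OVX (7.69%), 0 in OVX + E against female control (0.776%), 1 in female against male control (3.6%) and 2 for the response to replacement (4.3%). With quantile normalization of the 20 other arrays there were 2 in OVX against female control (2.03%), 6 in OVX + E against OVX (9.02%), 1 in female against male control (4.76%) and 3 for the response to replacement (5.24%). In OVX + E against OVX 1 member, Ndufa5, was called in a fit of 1 sex, in a fit of the 10 arrays compared, with a fold above 2 and in a test against a fold of 1.2. In OVX + E against female control 0 were called in the fits of 1 sex and of the 10 arrays, with the intensity trend, with every row, with median centring and in the test against 1.2, and for the response to replacement 0 with median centring and in that test. Leaving out 1 array gave 1 to 2 members in OVX + E against OVX and 0 to 1 in OVX + E against female control and for the response to replacement. Uqcrfs1 in ORX + T against ORX changed sign with array weights (-0.0613), without the narrow arrays (-0.0872, or -0.0555 after quantile normalization) and on leaving out 1 array (-0.104 to 0.367, negative without ORX replicate 3). Uqcrc1 in OVX + E against OVX changed sign with array SD as a covariate (0.0322), after quantile normalization of the 20 other arrays (0.0048) and on leaving out 1 array (-0.255 to 0.0345, positive without OVX + E replicate 2), and Sdhd on leaving out OVX replicate 3 (-0.0156 to 0.455 over the 10 arrays). None of these values passed. Among all genes, in OVX + E against OVX and in ORX + T against ORX, 246 and 299 passed in the fit reported, 1065 and 1326 with array weights, 2126 and 1448 with array SD, 868 and 854 after quantile normalization, 1119 and 973 without the narrow arrays, 1313 and 1047 with quantile normalization of the rest, 131 and 152 with a fold above 2, 116 and 128 in the test against 1.2, 122 and 202 in fits of the 10 arrays, and 546 and 499 rows of 36685 with every row; the fit of 1 sex gave 167 in OVX + E against OVX.

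The labels do not say that a replicate number links rats of different groups, and the fit reported did not treat the numbers as pairs. Deviations from the group mean correlated above 0.1 in 48 of 75 same-numbered pairs (-0.76 to 0.87). Of 30 arrays, 12 correlated best with their own number. Whether rats of the same number shared a step of the work was not tested. With replicate number as a block, 322 genes passed in OVX + E against OVX and 368 in ORX + T against ORX, and 1 member (Ndufa5) was called in OVX against female control (limma adjusted p = 0.0387); no narrow array bears number 1 or 4, so the block partly follows the array spread.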

Other observations

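A few copies went against the other members on the narrow arrays. Ndufb4l4, a copy of a complex I gene on the X chromosome, read 6.62 to 7.58 on the 10 narrow arrays and 4.75 to 5.72 on the other 20, and Ndufa13-ps1, a pseudogene, 6.50 to 7.76 and 5.32 to 6.12, with no overlap for either gene. Cox7cl1, a copy of a complex IV gene, read 4.79 to 5.74 on the narrow arrays and 4.02 to 4.91 on the others. Within groups, 12 of the 17 copies were higher on the narrow arrays, where 58 of 59 main subunits were lower. The reason was not tested.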
